A study of Mus musculus with 12 samples.

Results

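The genes of the mouse mitochondrial genome were followed in 12 RNA sequencing libraries of a cell line labelled MLO-Y4, an osteocyte-like line. The deposited data are named with the prefix MC3 instead, and the line's identity was not checked. All genes whose symbol begins with mt- were taken, which gave 37 of the 51707 genes matched in the files. They comprise 7 genes of respiratory complex I, 1 of complex III, 3 of complex IV, 2 of complex V, 2 ribosomal RNA (rRNA) genes and 22 transfer RNA (tRNA) genes. The cells were labelled wild type, grew on plates coated with rat collagen type I at 0.15 mg/mL, and formed 4 groups of 3 libraries. Differentiated BIGH3 treated cells and differentiated control cells were grown in medium with 10% serum, ascorbic acid at 50 µg/mL and β-glycerophosphate at 4 mM. Undifferentiated BIGH3 treated cells and undifferentiated control cells are the libraries whose labels do not carry the word differentiated, and no medium is stated for them. BIGH3, an extracellular matrix protein encoded by TGFBI, was added as recombinant human protein. The dose, the duration and the vehicle of the controls are not stated in the labels, nor which libraries, if any, received the hydroxychloroquine or anti-BIGH3 antibody that the shared protocol mentions. Separate cultures are not stated for the 3 libraries of a group, so the p-values describe the spread among libraries, which may be technical. Differentiation and a direct effect of the medium cannot be told apart.

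Mitochondrial DNA is a small circle kept in many copies per cell. Both strands are transcribed into long precursors, and the tRNAs lying between the other genes mark many of the places where the precursor is cut into single messengers and rRNAs. The messengers encode core subunits of the respiratory chain and of ATP synthase, and every other subunit of these complexes is encoded in the nucleus. The 2 mitochondrial rRNAs form the core of the mitochondrial ribosome, whose proteins also come from nuclear genes. Osteoblast-lineage cells use both glycolysis and oxidative phosphorylation for their energy supply.

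Depth was 19014492 to 27612155 estimated reads per library. Osteocyte and osteoblast markers summed to 2261 to 3492 CPM (reads scaled to library size), mostly from Col1a1. Among osteocyte genes, Dmp1 (35.6 to 95.3 CPM), Pdpn (183 to 294 CPM) and Phex (7.21 to 87.3 CPM) had reads in every library. Fgf23 was at 0 in every library, Sost reached at most 0.330 CPM and Mepe at most 0.896 CPM. Liver markers, mainly Afp, summed to 56.4 CPM in differentiated BIGH3 3, 49.5 CPM in differentiated control 2, 25.8 CPM in undifferentiated BIGH3 1 and 119 CPM in undifferentiated control 2, against at most 7.78 CPM in the other libraries. Of the 14 liver markers, 1 was at 0 everywhere and 4, that one included, never exceeded 1 CPM. Alb was among these, at most 0.368 CPM, against up to 63.3 CPM for Afp. Apoh and Apoa2 did not follow the pattern of the summed markers. Macrophage markers summed to at most 1.5 CPM and red blood cell markers to at most 0.613 CPM. The 3 libraries highest in liver markers are undifferentiated control 2, differentiated BIGH3 3 and differentiated control 2. Values without them stand beside many of the mitochondrial genes and gene lists whose calls or counts they move. Neither the source of these transcripts nor their part in the results was tested.

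Many reads from mitochondrial transcripts also match nuclear DNA copies of mitochondrial genes, and Salmon, the program that estimated the reads, divides such reads by a model. A block on the minus strand of chromosome 1 (GRCm38, chr1:24611535-24616197) carries the annotated copies Gm29216, Gm28661, Gm10925, Gm28437, Gm28438 and Gm28439, which match mt-Co1, mt-Co2, mt-Atp6, mt-Co3, mt-Nd3 and mt-Nd4. The next 3 sequences are the first 60 bases of mt-Co2 (chrM:7013-7072, plus strand), of its chromosome 1 copy Gm28661 (chr1:24615506-24615565, minus strand) and of its chromosome 2 copy Gm13341 (chr2:22587903-22587962, minus strand), from GRCm38. They are shown because a read from this stretch cannot tell the first 2 apart. Capitals mark the bases of a copy that differ from mt-Co2.
mt-Co2: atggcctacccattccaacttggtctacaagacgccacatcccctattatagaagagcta
Gm28661: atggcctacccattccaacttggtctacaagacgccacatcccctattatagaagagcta
Gm13341: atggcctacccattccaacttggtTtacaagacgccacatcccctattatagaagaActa
Counted from 1 at the first base of mt-Co2, Gm13341 carries C25T and G57A in this stretch. Gm28661 is identical to mt-Co2 over 681 of the gene's 684 bases. The next pair shows the first 60 bases of mt-Nd3 (chrM:9459-9518, plus strand) and of its copy Gm28438 (chr1:24613060-24613119, minus strand).
mt-Nd3: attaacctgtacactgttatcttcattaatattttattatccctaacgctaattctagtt
Gm28438: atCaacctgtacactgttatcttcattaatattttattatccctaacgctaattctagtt
T3C, counted from the first base of mt-Nd3, is the only difference between this pair over the 345 bases they share.

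The estimated reads were divided very unequally between these pairs. Gm28661 held 91.4%, 88.3% and 81.3% of the reads of its pair with mt-Co2 in the differentiated BIGH3 libraries, and between 81.3% and 97.0% over all 12 libraries. The share of Gm10925 in its pair with mt-Atp6 ran between 45.5% and 75.0%, and that of Gm28437 in its pair with mt-Co3 between 42.8% and 71.3%. Gm29216 held 2.9% to 6.35% of its pair with mt-Co1. Gm28439, identical to mt-Nd4 over 876 of the gene's 1378 bases, had 0 reads in 6 libraries and up to 16.4% of the pair's reads in another. Gm28438 had 251 reads in undifferentiated control 2 and 0 in the other 11 libraries, and the mt-Nd4l copy Gm10222 had 0 in all 12.

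**Figure D1:**
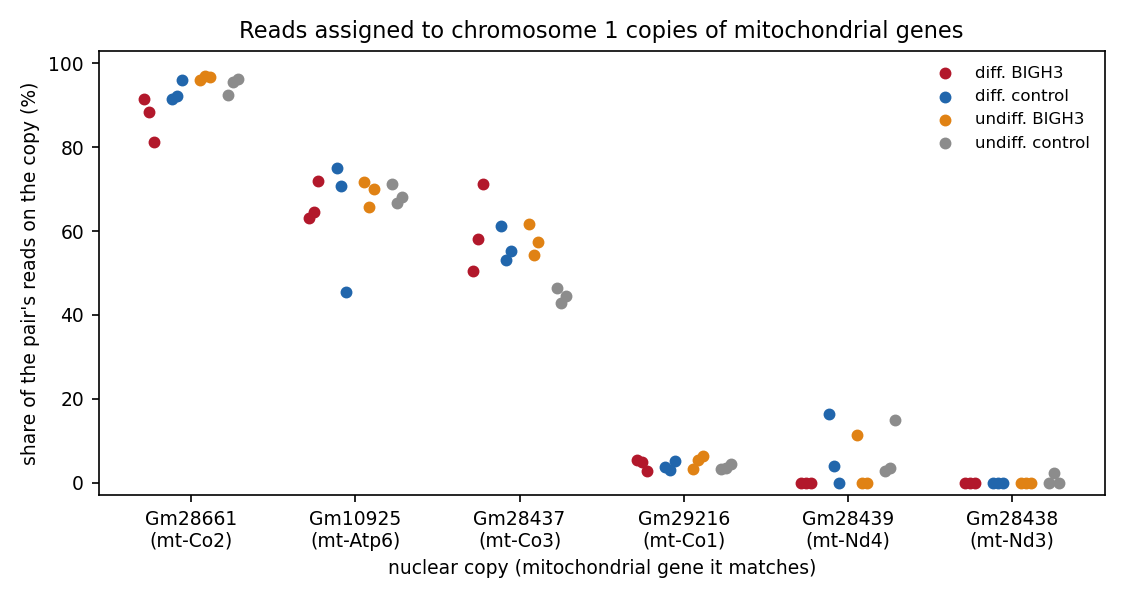
Share of the reads of each pair that was assigned to the chromosome 1 copy rather than to the mitochondrial gene (y axis, %), with 1 point per library coloured by group, for 6 pairs (x axis). Gm28661 takes 81.3% to 97.0% of the reads it shares with mt-Co2, while Gm28438 takes 0 reads in 11 of 12 libraries.

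The extent of shared sequence differed between genes. All 31-base windows of mt-Co2 (100%) also occur in a nuclear transcript, as do 99.9% of those of mt-Co3, 99.5% of mt-Atp6, 98.9% of mt-Nd4l and 98.1% of mt-Nd3. For mt-Co1 and mt-Nd4 the shares were 63.9% and 62.8%. They were at most 16.8% for the other protein genes and 0 for mt-Nd1 and mt-Rnr1. Values as deposited are therefore uncertain for mt-Co2, mt-Atp6, mt-Co3, mt-Nd4l, mt-Nd3, mt-Co1 and mt-Nd4. For mt-Nd4l and mt-Nd3 few or no reads were assigned to the copies, so adding them changes little. Results are given with the estimated reads as deposited and with the reads of the nuclear copies added to their mitochondrial gene. All 17 copy genes found were added, of which the 6 on chromosome 1 compared above held over 100 reads in a library. Whether the copies themselves are transcribed was not tested. More divergent copies elsewhere, Gm13341 among them, held at most 47 reads in a library.

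Of the 37 genes, the 13 protein genes and both rRNA genes passed the filter on low counts, with at least 1018 reads in every library. The 22 tRNA genes did not pass and were not tested. Of these, 15 had no read, and the other 7 had 48 reads together over all libraries. The most were on mt-Ts1, a serine tRNA gene, with up to 8 reads in a library. The tRNAs are 59 to 75 bases long with effective lengths of 6 to 9 bases in the files, so a count of 0 says little of their level.

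Levels per length, as TPM (a transcript share of fixed library sum, corrected for length), were spread over a wide range. Counting the copies, mt-Atp8, which encodes a small membrane subunit of ATP synthase, averaged 30704 TPM in differentiated BIGH3 libraries, 27954 TPM in differentiated control, 23311 TPM in undifferentiated BIGH3 and 19174 TPM in undifferentiated control libraries. The cytochrome oxidase genes mt-Co2 and mt-Co1 and the ATP synthase gene mt-Atp6 followed, with averages over all libraries of 23992, 23306 and 22521 TPM, and neighbours in the order of these 4 genes overlapped in their ranges within each group, apart from mt-Co1 and mt-Co2 in undifferentiated control libraries. In differentiated control libraries mt-Co2 stood first, at 32860 TPM. Next came mt-Co3 (16042 TPM) and mt-Cytb (11903 TPM). The complex I genes lay between 8630 TPM for mt-Nd2 and 4404 TPM for mt-Nd5, apart from mt-Nd6. The gene mt-Nd6 was lowest in each group, at 527 TPM in differentiated BIGH3 and 483 TPM in differentiated control libraries, and 325 TPM in undifferentiated BIGH3 and 239 TPM in undifferentiated control libraries. It is the only protein gene on the minus strand. Strandedness of the libraries is not stated, so its reads and those of plus strand precursors across the same bases cannot be told apart. As deposited, mt-Co2 averaged 1831 TPM over all libraries and stood second from last. The TPM of a copy was added as it stood, scaled by the copy's own length. Gm29216 and Gm28439, at 492 and 876 bases, are shorter than mt-Co1 and mt-Nd4, at 1545 and 1378 bases. The sums for mt-Co1 and mt-Nd4 therefore exceed levels scaled by gene length, and their place in the order is uncertain. As deposited mt-Co1 averaged 19181 TPM and mt-Nd4 6640 TPM over all libraries. The place of mt-Atp8 rests on the correction for its length of 204 bases, and is uncertain too. In differentiated BIGH3 libraries it averaged 1450 CPM with the copies added, against 27193 CPM for mt-Co1.

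Some neighbouring messengers overlap on the genome and are known to stay joined. The stretch chrM:7915-7981 shows the end of mt-Atp8 and the start of mt-Atp6, with the 43 shared bases in capitals, and chrM:10155-10185 shows the end of mt-Nd4l and the start of mt-Nd4, with 7 shared bases in capitals (both plus strand). They are shown because joined messengers should be read at like levels.
mt-Atp8/mt-Atp6: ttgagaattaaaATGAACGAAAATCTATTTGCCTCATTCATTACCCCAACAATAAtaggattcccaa
mt-Nd4l/mt-Nd4: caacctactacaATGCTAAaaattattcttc
As deposited, the TPM of mt-Atp8 over that of mt-Atp6 was 3.39 ± 1.1 in differentiated BIGH3, 2.94 ± 0.85 in differentiated control, 4.19 ± 0.39 in undifferentiated BIGH3 and 4.04 ± 0.058 in undifferentiated control libraries (SD, n = 3 each). With the copies added it was 1.09 ± 0.18, 0.973 ± 0.11, 1.28 ± 0.028 and 1.26 ± 0.079 in the same order of groups. The ratio thus came close to 1 once the reads of Gm10925 were counted with mt-Atp6. Its value also depends on the length correction for the short mt-Atp8. The ratio of mt-Nd4l to mt-Nd4 with the copies added was 0.881 ± 0.060 in differentiated BIGH3 and 0.750 ± 0.13 in differentiated control libraries, and 0.732 ± 0.068 in undifferentiated BIGH3 and 0.747 ± 0.12 in undifferentiated control libraries. As deposited it was 0.881 ± 0.060, 0.838 ± 0.027, 0.781 ± 0.017 and 0.842 ± 0.040 in the same order of groups. Adding Gm28439, whose TPM is scaled by its own shorter length, thus moved this ratio further from 1 except in differentiated BIGH3 libraries.

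Mitochondrial genes together took larger shares of the reads in differentiated libraries. As deposited they held 8.48%, 9.43% and 8.78% of the matched reads in the 3 differentiated BIGH3 libraries and 7.72%, 8.93% and 11.1% in the differentiated control libraries. The shares were 4.28%, 5.72% and 5.09% in undifferentiated BIGH3 and 4.65%, 4.62% and 3.91% in undifferentiated control libraries. Every differentiated library was above every undifferentiated one, while the BIGH3 and control libraries overlapped within each state. No test was made over such a sum of members. The 95% Wilson intervals of these shares were at most 0.026 percentage points wide and cover counting error only. With the copies added the group means were 11.2 ± 0.58% in differentiated BIGH3 and 11.8 ± 1.9% in differentiated control, and 6.46 ± 0.91% in undifferentiated BIGH3 and 5.50 ± 0.48% in undifferentiated control libraries. Fewer cells of a type and less RNA per cell cannot be told apart in such bulk samples.

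**Figure D2:**
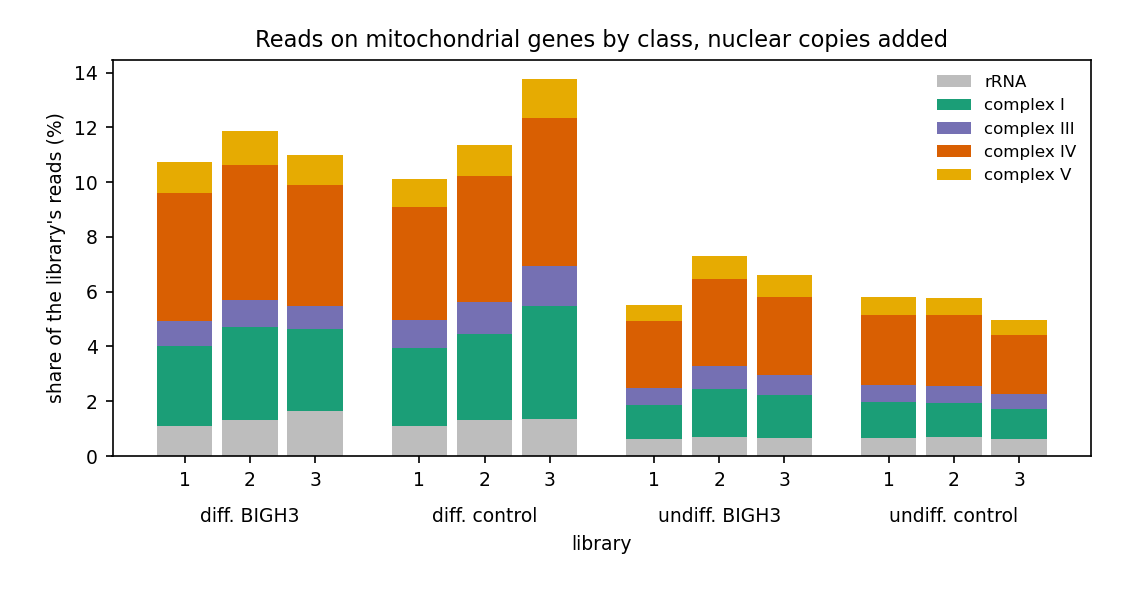
Share of each library's reads on mitochondrial genes (y axis, %), stacked by class with the reads of the nuclear copies added, for the 12 libraries (x axis). The differentiated libraries hold 10.1% to 13.8%, all above the undifferentiated libraries, and differentiated control 3 is the highest.

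By class and with the copies added, complex IV messengers held the most reads in every group, at 4.68 ± 0.26% of all matched reads in differentiated BIGH3 and 4.70 ± 0.65% in differentiated control libraries, and 2.82 ± 0.37% in undifferentiated BIGH3 and 2.44 ± 0.24% in undifferentiated control libraries. Complex I messengers followed with 3.11 ± 0.24% and 3.38 ± 0.69% in differentiated BIGH3 and control libraries, against 1.53 ± 0.27% and 1.23 ± 0.095% in undifferentiated BIGH3 and control libraries. As deposited the order of complex I and complex IV turned in the differentiated state, at 3.11% against 3.04% in differentiated BIGH3 and 3.32% against 2.90% in differentiated control libraries. The rRNAs held 1.35 ± 0.27% and 1.25 ± 0.14% in differentiated BIGH3 and control libraries and 0.658 ± 0.030% and 0.650 ± 0.035% in undifferentiated BIGH3 and control libraries. Whether rRNA was depleted is not stated. Complex III, which is mt-Cytb alone, had the most unequal means between treatments in the differentiated state among the 5 classes shown, at 0.908 ± 0.070% with BIGH3 and 1.23 ± 0.21% without.

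Differentiated cells were first compared with undifferentiated cells of the same treatment, gene by gene in CPM. In control cells all 15 tested mitochondrial genes rose, by 0.87 to 1.95 on the log2 scale with a median of 1.45, when 29.1% of all 14711 genes tested were called higher and the median of all genes was -0.01. In each of the 15 the libraries of the groups did not overlap, as in 31.9% of all genes. Among BIGH3 treated cells 12 of 15 rose, with a median of 0.90, against 28.9% of all genes. The 3 that were not called there were mt-Atp6 (0.90 ± 0.42, adjusted p = 0.106), mt-Cytb (0.44 ± 0.17, adjusted p = 0.0587) and mt-Nd3 (0.10 ± 0.21, adjusted p = 0.702). After adding the copies the counts were 15 in control cells (background 29.1%) and 13 in BIGH3 treated cells (background 28.4%), where mt-Atp6 was then called (0.78 ± 0.17, adjusted p = 0.00468).

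Among complex I genes, mt-Nd2, a subunit of the proton-pumping membrane arm, had the largest rise in control cells. It stood at 6430, 7255 and 10732 CPM in differentiated control libraries, against 2304, 2091 and 1924 CPM in undifferentiated control libraries. This is a 3.86-fold rise (log2 1.95 ± 0.22, adjusted p = 8.31e-05), and the groups did not overlap. In BIGH3 treated cells mt-Nd2 stood at 9059, 10894 and 9234 CPM in differentiated libraries, against 2185, 3316 and 2992 CPM in undifferentiated libraries, a 3.44-fold rise (log2 1.78 ± 0.22, adjusted p = 1.55e-04). The neighbouring gene mt-Nd1, a membrane subunit close to the quinone site, rose 2.99-fold in BIGH3 treated cells and 3.14-fold in control cells. The rises of mt-Nd4l, mt-Nd4, mt-Nd5 and mt-Nd6 were 1.67-fold to 1.89-fold in BIGH3 treated cells and 2.50-fold to 2.92-fold in control cells.

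For mt-Nd3, whose product takes part in coupling electron transfer to proton pumping, the differentiated BIGH3 libraries held 748, 734 and 588 CPM and the undifferentiated BIGH3 libraries 494, 756 and 677 CPM. These groups overlapped. In control cells the differentiated libraries held 1077, 1321 and 1736 CPM, against 469, 446 and 408 CPM in undifferentiated libraries, a 3.13-fold rise (log2 1.64 ± 0.21, adjusted p = 1.77e-04).

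**Figure D3:**
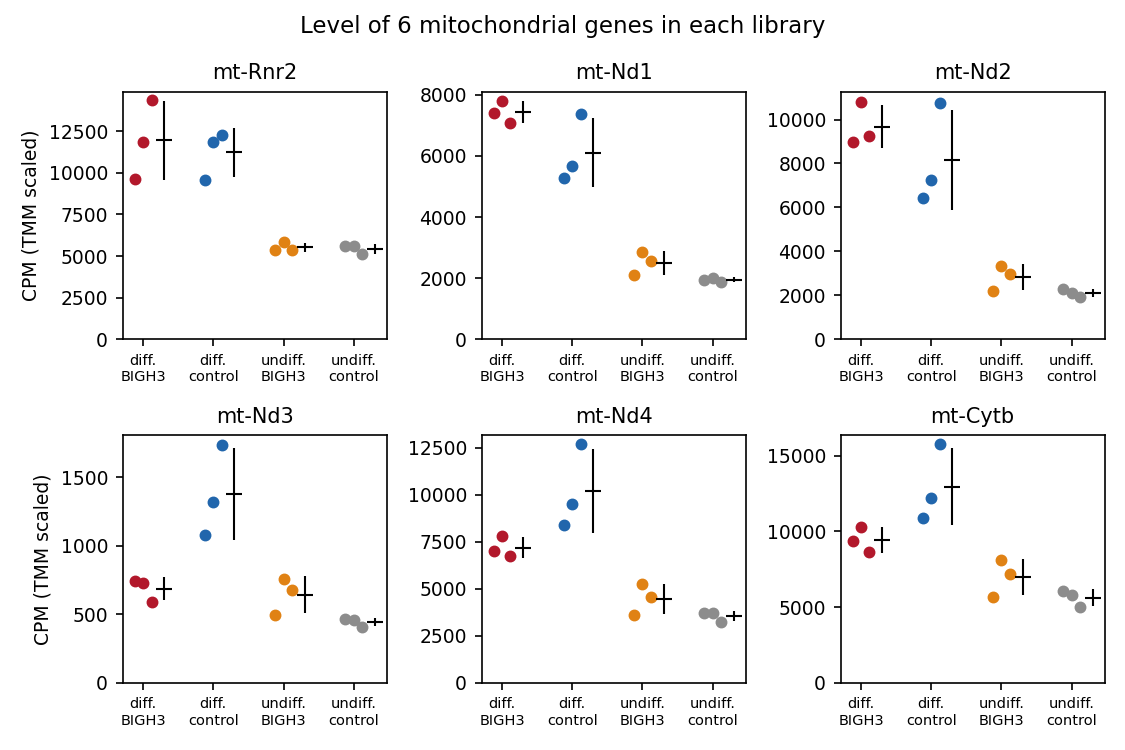
CPM scaled by TMM, with the reads of the nuclear copies added (y axis, from 0), of 6 mitochondrial genes in each library (points) by group, with the mean and SD beside them. For mt-Nd3, mt-Nd4 and mt-Cytb each differentiated BIGH3 library lies below each differentiated control library, while for mt-Rnr2, mt-Nd1 and mt-Nd2 these groups overlap.

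The complex III gene mt-Cytb, which encodes cytochrome b, stood at 9431, 10378 and 8635 CPM in differentiated BIGH3 libraries and 5676, 8070 and 7220 CPM in undifferentiated BIGH3 libraries. These groups did not overlap, but the difference was not called. In control cells it stood at 10873, 12190 and 15761 CPM in differentiated libraries, against 6076, 5785 and 4967 CPM in undifferentiated libraries, a 2.31-fold rise (log2 1.21 ± 0.18, adjusted p = 3.60e-04).

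The complex IV gene mt-Co1, the catalytic subunit, rose least among the 15 genes in control cells as deposited, 1.82-fold (log2 0.87 ± 0.12, adjusted p = 2.88e-04). It stood at 22025, 24673 and 29027 CPM in differentiated control libraries, against 14612, 14663 and 12246 CPM in undifferentiated control libraries. In BIGH3 treated cells it rose 1.67-fold. The copper-binding subunit gene mt-Co2 rose 6.78-fold in BIGH3 treated cells as deposited, at 971, 1387 and 1916 CPM in differentiated libraries and 207, 211 and 212 CPM in undifferentiated libraries. Counting Gm28661 it rose 1.75-fold, at 11166, 11744 and 10277 CPM in differentiated BIGH3 libraries and 5284, 7148 and 6491 CPM in undifferentiated BIGH3 libraries. The size of that rise therefore depended on how reads were divided between gene and copy. Again counting the copies, mt-Co2 rose 2.63-fold in control cells, and mt-Co3 rose 2.32-fold in BIGH3 treated and 2.66-fold in control cells.

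Both ATP synthase genes and both rRNA genes were also called higher in the differentiated state once the copies were counted. On that count mt-Atp6, the proton channel subunit, rose 1.72-fold in BIGH3 treated cells and 2.29-fold in control cells. For mt-Atp8 the rises were 1.5-fold in BIGH3 treated and 1.87-fold in control cells. The rise of mt-Atp8 in BIGH3 treated cells (adjusted p = 0.0409 as deposited) was lost in 9 of the 12 fits that each left out 1 library, those without undifferentiated BIGH3 1 or 3, any undifferentiated control, any differentiated BIGH3 or differentiated control 2, with adjusted p of 0.0507 to 0.127. As deposited, the rise of mt-Nd4 in BIGH3 treated cells was lost without undifferentiated BIGH3 1 or 3 or any differentiated BIGH3 library (adjusted p of up to 0.101), and that of mt-Co3 without undifferentiated BIGH3 1 or differentiated BIGH3 1 (up to 0.0531). In control cells the rise of mt-Atp6 was lost without undifferentiated control 1 or 3, and that of mt-Co3 without undifferentiated control 3 or differentiated control 2 or 3 (adjusted p of up to 0.0658). None of these 4 calls was lost with the copies added. The large subunit rRNA gene mt-Rnr2 stood at 9710, 11962 and 14370 CPM in differentiated BIGH3 libraries, against 5355, 5823 and 5366 CPM in undifferentiated BIGH3 libraries, a 2.18-fold rise (log2 1.12 ± 0.15, adjusted p = 1.74e-04). The small subunit rRNA gene mt-Rnr1 rose 2.49-fold in BIGH3 treated and 2.61-fold in control cells.

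Without the 3 libraries highest in liver markers, 8 of 15 genes were called higher in BIGH3 treated cells as deposited and 10 with the copies added, and 13 and 15 in control cells. As deposited 26.5% of all genes were called higher in that fit in BIGH3 treated cells and 25.6% in control cells. The summed level of heart and skeletal muscle markers was higher in differentiated libraries too, and lower in differentiated BIGH3 than in differentiated control libraries, though single markers did not all follow. Between differentiated and undifferentiated BIGH3 libraries Myh3 overlapped and Myh7 was lower in the differentiated ones. The 9 markers, of which Myl7 was at 0 everywhere and 4, Myl7 included, never exceeded 1 CPM, summed to 5.88 to 11.7 CPM in differentiated BIGH3 libraries, 16.7 to 21.8 CPM in differentiated control libraries, 2.95 to 3.81 CPM in undifferentiated BIGH3 libraries and 2.82 to 3.37 CPM in undifferentiated control libraries. Their part in these results and in those of BIGH3 in differentiated cells was not tested.

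BIGH3 was then compared with control within each state. In undifferentiated cells no mitochondrial gene was called (0 of 15 by edgeR, where 0.0204% of all genes were called, and 0 by DESeq2, where 0.0545% were), and 3 genes had an unadjusted p below 0.05. The median log2 fold change of the 15 genes was 0.32, against 0.00 over all genes, and 13 were above 0. The 3 genes were mt-Nd1 (log2 0.37 ± 0.14), mt-Nd3 (0.54 ± 0.21) and mt-Nd6 (0.53 ± 0.18), all with an edgeR adjusted p that rounds to 1. For mt-Nd3 the undifferentiated BIGH3 libraries held 494, 756 and 677 CPM, against 469, 446 and 408 CPM in undifferentiated control libraries. The same 3 genes did not overlap between the groups (3 of 15 higher, against 4.59% of all genes). Once the copies were added mt-Co2 joined them (4 of 15, against 4.35%), and 0 genes were called.

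In differentiated cells 1 of the 15 genes was called lower with BIGH3 and none higher as deposited, when 22.9% of all genes were called lower and 22.6% higher. The gene was mt-Nd3, at 748, 734 and 588 CPM in differentiated BIGH3 libraries, against 1077, 1321 and 1736 CPM in differentiated control libraries. It fell 2.0-fold (log2 -1.0 ± 0.21, adjusted p = 0.00457), and the groups did not overlap. As deposited mt-Cytb also lay wholly lower (2 of 15, against 27.8% of all genes) and mt-Co2 wholly higher (1 of 15, against 27.3%), neither called. DESeq2 called 2 genes, mt-Nd3 and mt-Cytb (log2 -0.45, adjusted p = 0.0231 by DESeq2), when it called 44.0% of all genes. The fall of mt-Nd3 remained called in each of the 12 fits that left out 1 library (adjusted p at most 0.0187), and was -0.94 without the 3 libraries highest in liver markers (adjusted p = 0.0621). The median of the 15 genes was 0.05.

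With the copies added mt-Nd4, a subunit of the membrane arm of complex I, was called lower as well, so that 2 of 15 were lower, against 23.7% of all genes, and 0 were when the 3 libraries highest in liver markers were left out. It held 6987, 7824 and 6739 CPM in differentiated BIGH3 libraries, against 8406, 9516 and 12682 CPM in differentiated control libraries, a 1.42-fold fall (log2 -0.51 ± 0.18, adjusted p = 0.0441). As deposited its log2 fold change was -0.41 ± 0.25 (adjusted p = 0.216), the groups overlapped, and with the copies added the call held in 3 of 12 fits that left out 1 library (without undifferentiated BIGH3 1 or 2 or differentiated control 1, with adjusted p of 0.0227 to 0.0397, and up to 0.124 in the others). For mt-Nd5 (-0.44 ± 0.19, adjusted p = 0.0880) and mt-Cytb (-0.46 ± 0.17, adjusted p = 0.0570) the libraries also did not overlap with the copies added, but neither was called. Thus 4 of 15 genes lay wholly lower, against 28.9% of all genes, a share near that background. At the other end were mt-Nd1 (0.28 ± 0.14, adjusted p = 0.134) and mt-Nd2 (0.25 ± 0.22, adjusted p = 0.393), also uncalled. Without differentiated control 3, the control library with the highest mitochondrial share, mt-Nd1 was called higher (0.44, adjusted p = 0.00768 as deposited).

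**Figure D4:**
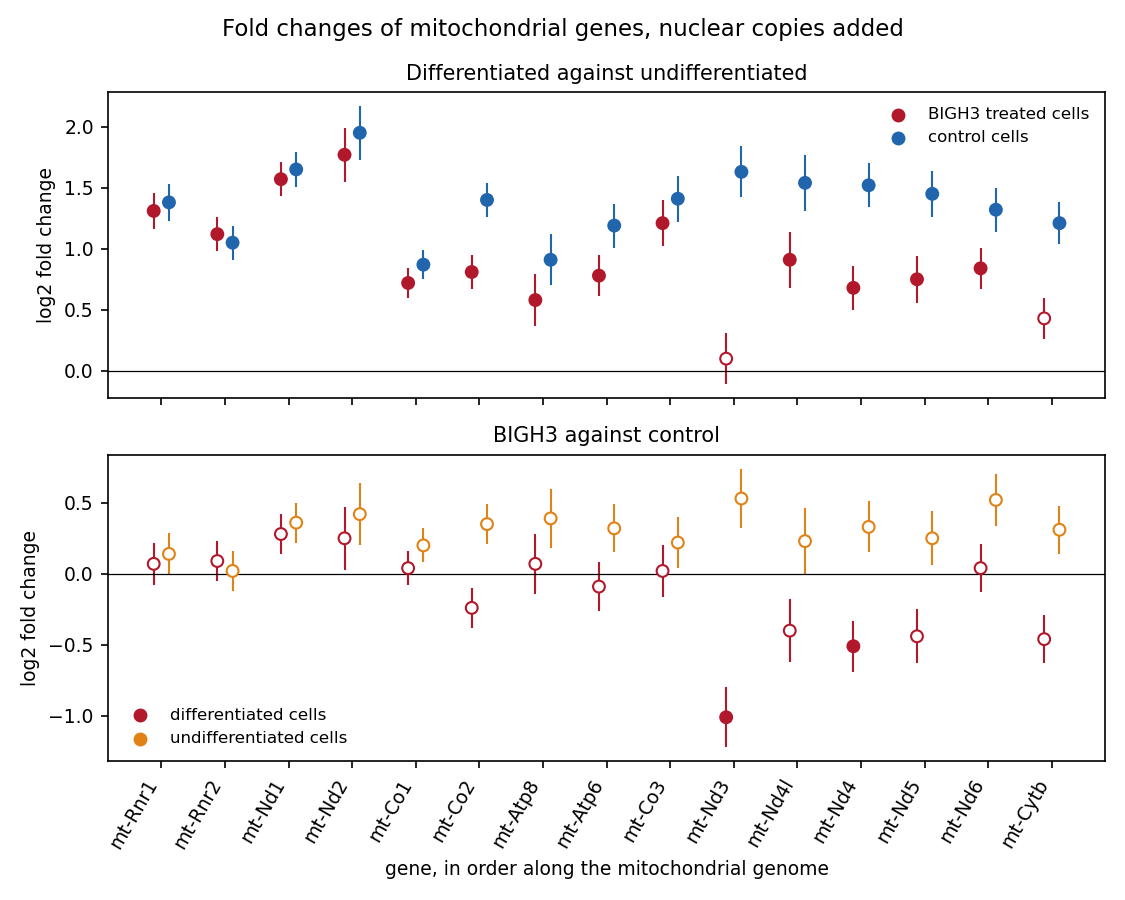
Log2 fold changes with standard errors (y axis) of the 15 tested mitochondrial genes in order along the genome (x axis), with the reads of the nuclear copies added. Filled points are called at an adjusted p below 0.05 and open points are not. In the upper panel the points of BIGH3 treated cells run from 1.77 for mt-Nd2 to 0.10 for mt-Nd3, and in the lower panel mt-Nd3 and mt-Nd4 in differentiated cells are the called points.

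The difference between the BIGH3 effects in the differentiated and undifferentiated states was tested as an interaction. As deposited 2 of 15 genes were called, both with a lower BIGH3 effect in differentiated cells, when 32.2% of all genes were called in either direction. By DESeq2 3 were called, against 31.2% of all genes. For mt-Nd3 the BIGH3 effect in differentiated minus that in undifferentiated cells was -1.54 ± 0.30 on the log2 scale (adjusted p = 0.00445), from -1.0 in differentiated and 0.54 in undifferentiated cells, and this held in each fit that left out 1 library (adjusted p at most 0.0132). Without the 3 libraries highest in liver markers it was -1.49 (adjusted p = 0.0553). For mt-Cytb the interaction was -0.77 ± 0.24 (adjusted p = 0.0439), from effects of -0.45 in differentiated and 0.32 in undifferentiated cells. The call for mt-Cytb was lost in 10 of 12 fits that left out 1 library, all but those without undifferentiated BIGH3 1 or differentiated control 1, with adjusted p of up to 0.0917, and without the 3 libraries highest in liver markers (adjusted p = 0.178).

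Adding the copies, 4 genes were called lower in the interaction, against 16.5% of all genes, and 0 when the 3 libraries highest in liver markers were left out. These were mt-Nd3 and mt-Cytb, with mt-Nd4 (-0.83 ± 0.25, adjusted p = 0.0329) and mt-Co2 (-0.59 ± 0.19, adjusted p = 0.0460). The sign for mt-Co2 turned, since as deposited its interaction was 1.07 ± 0.49 (adjusted p = 0.138). When single libraries were left out, mt-Nd4 stayed called without undifferentiated BIGH3 1, differentiated BIGH3 2 or any differentiated control library (5 of 12 fits), with adjusted p of up to 0.0749 in the others. The call for mt-Co2 stayed without undifferentiated BIGH3 1 or differentiated control 1 or 3 (3 of 12 fits), with adjusted p of up to 0.107 in the others. By contrast, mt-Rnr1 (-0.08 ± 0.21), mt-Rnr2 (0.07 ± 0.20), mt-Nd1 (-0.08 ± 0.20), mt-Nd2 (-0.18 ± 0.31) and mt-Co1 (-0.15 ± 0.17) had small estimates and were not called.

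The make-up of the mitochondrial messenger pool was read as each gene's share of the reads on the 13 protein genes, with the copies added. Since these shares add up to a whole, a higher share of one gene lowers the others. The share of mt-Nd3 was 0.671 ± 0.063% in differentiated BIGH3 and 1.24 ± 0.078% in differentiated control libraries, and 1.14 ± 0.069% in undifferentiated BIGH3 and 0.967 ± 0.022% in undifferentiated control libraries. That of mt-Cytb was 9.22 ± 0.18% in differentiated BIGH3 and 11.7 ± 0.065% in differentiated control libraries, and 12.4 ± 0.21% and 12.2 ± 0.25% in undifferentiated BIGH3 and control libraries. The share of mt-Nd1 was 7.27 ± 0.19% in differentiated BIGH3 and 5.51 ± 0.12% in differentiated control libraries, and 4.46 ± 0.026% and 4.23 ± 0.25% in undifferentiated BIGH3 and control libraries.

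Between differentiated BIGH3 and differentiated control libraries, 3 of the 13 shares lay wholly higher (mt-Nd1, mt-Nd2 and mt-Co1) and 6 wholly lower (mt-Co2, mt-Nd3, mt-Nd4l, mt-Nd4, mt-Nd5 and mt-Cytb), and 4 overlapped. These counts have no background over all genes, since the shares are of a pool of 13 genes. On the scale of CPM, 26.6% of all genes lay wholly higher and 28.9% wholly lower in this contrast. On that scale 0 of the 15 tested mitochondrial genes lay wholly higher and 4 wholly lower. In undifferentiated cells 1 share lay wholly higher with BIGH3, that of mt-Nd3, and the other 12 overlapped. Complex I as a whole held like shares in both treatments of the differentiated state, with the shares of mt-Nd1 and mt-Nd2 higher and those of mt-Nd3, mt-Nd4l, mt-Nd4 and mt-Nd5 lower. It held 31.6 ± 0.98% of the messenger reads in differentiated BIGH3 and 32.1 ± 1.1% in differentiated control libraries, and 26.2 ± 0.62% and 25.3 ± 0.57% in undifferentiated BIGH3 and control libraries.

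**Figure D5:**
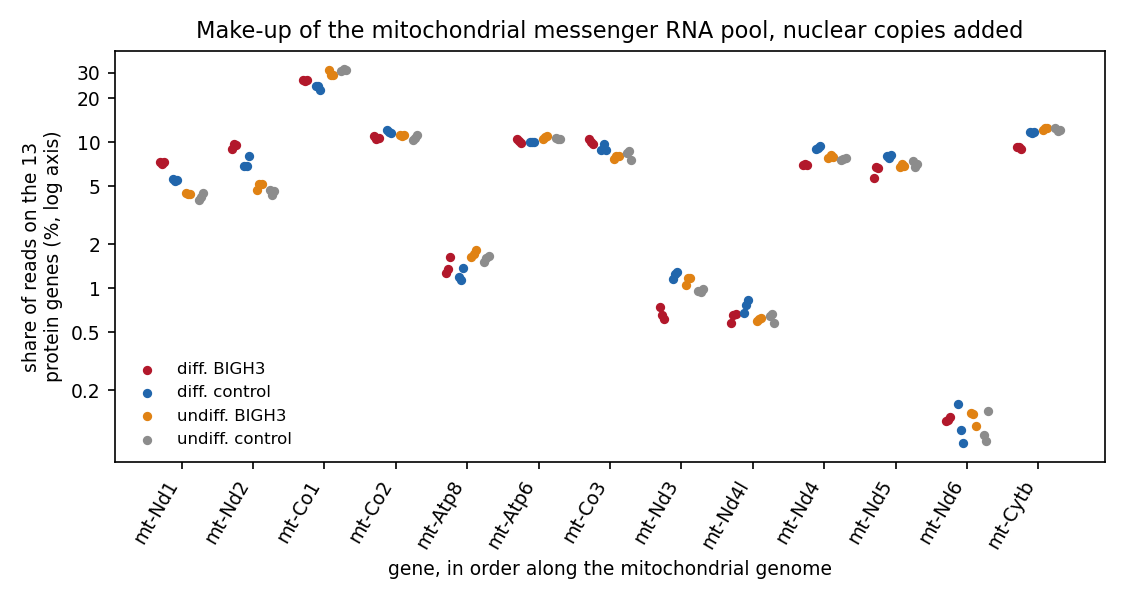
Share of the reads on the 13 mitochondrial protein genes held by each gene (y axis, %, log axis) in each library (points, coloured by group), in order along the genome (x axis), with the reads of the nuclear copies added. The differentiated BIGH3 libraries lie above the differentiated control libraries for mt-Nd1, mt-Nd2 and mt-Co1, and below them for mt-Co2 and for mt-Nd3 to mt-Nd5 and mt-Cytb.

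Ratios of pairs of messengers, chosen after the values were seen and given without a test, show the same values free of the size of the pool. The TPM of mt-Cytb over that of mt-Nd1, the last and first messengers on the plus strand, was 1.00 ± 0.039 in differentiated BIGH3 libraries and 1.69 ± 0.043 in differentiated control libraries, and 2.21 ± 0.049 and 2.29 ± 0.17 in undifferentiated BIGH3 and control libraries. The ratio of mt-Nd3 to mt-Nd2 was 0.370 ± 0.053 in differentiated BIGH3 and 0.859 ± 0.064 in differentiated control libraries, and 1.18 ± 0.054 and 1.07 ± 0.065 in undifferentiated BIGH3 and control libraries. The rRNA ratio of mt-Rnr2 to mt-Rnr1 was 3.07 ± 0.063 in differentiated BIGH3 and 3.07 ± 0.12 in differentiated control libraries, and 3.56 ± 0.30 and 3.92 ± 0.42 in undifferentiated BIGH3 and control libraries. Messengers over rRNAs, in TPM, stood at 14.9 ± 3.1 in differentiated BIGH3 and 16.4 ± 2.0 in differentiated control libraries, and at 18.3 ± 2.6 and 14.9 ± 0.81 in undifferentiated BIGH3 and control libraries, and the treatments overlapped within each state.

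Gene order along the plus strand, from mt-Rnr1 to mt-Cytb, was set beside the fold changes of its 14 tested genes with the copies added. For BIGH3 against control in differentiated cells Spearman's rho between start position and log2 fold change was -0.84. In undifferentiated cells it was 0.17. For the contrast of states it was -0.65 with BIGH3 and 0.14 in control cells. As deposited the 4 values were -0.81, 0.22, -0.63 and 0.01. These are descriptions over genes that share libraries and precursors, with no test, and the comparisons share groups.

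Nuclear genes that serve the mitochondrial genome were counted in the same fit, as deposited. Of 80 tested nuclear subunit genes of the respiratory complexes, 29 rose and 9 fell with differentiation in BIGH3 treated cells (36.2% and 11.2%, median log2 0.13, with 28.9% and 27.7% over all genes). In control cells 56 rose and 1 fell (70.0% and 1.25%, median 0.29, with 29.1% and 28.6% over all genes). In control cells the complex III genes Uqcrq and Uqcr10 rose by 0.84 ± 0.07 and 0.81 ± 0.08 on the log2 scale. With BIGH3 in differentiated cells 5 rose and 28 fell (6.25% and 35.0%, median -0.15, with 22.6% and 22.9% over all genes). Among the falls were Ndufb9 of complex I (-0.54 ± 0.06, adjusted p = 2.27e-07) and Sdhb of complex II (-0.52 ± 0.06, adjusted p = 1.03e-06). Ndufb9 averaged 79.8 ± 4.1 CPM in differentiated BIGH3 and 116 ± 7.4 CPM in differentiated control libraries. Without the 3 libraries highest in liver markers 4 rose and 14 fell of 80, when 17.2% of all genes rose and 19.3% fell. In that fit 43 rose and 7 fell with differentiation in BIGH3 treated cells (26.5% and 26.3% over all genes). In control cells 54 rose and 0 fell in that fit (25.6% and 24.6% over all genes).

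Of 78 mitochondrial ribosomal protein genes, 46 rose and 4 fell with differentiation in BIGH3 treated cells (59.0% and 5.13%, median log2 0.25, with 28.9% and 27.7% over all genes). In control cells 53 rose and 0 fell (67.9% and 0%, median 0.29, with 29.1% and 28.6% over all genes). Examples from control cells are Mrpl36 (0.75 ± 0.09) and Mrps7 (0.52 ± 0.06). Without the 3 libraries highest in liver markers 45 rose and 3 fell in BIGH3 treated cells (26.5% and 26.3% over all genes). In control cells 46 rose and 0 fell in that fit (25.6% and 24.6% over all genes). With BIGH3 in differentiated cells 11 rose and 14 fell (14.1% and 17.9%), shares below those of all genes in both directions (22.6% and 22.9%). Leaving out the 3 libraries highest in liver markers gave 7 and 8, with 17.2% and 19.3% over all genes. In the fit of all libraries Mrpl24 fell with BIGH3 in differentiated cells by 0.40 on the log2 scale (adjusted p = 2.30e-06).

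Of 19 genes for transcription and upkeep of mitochondrial DNA, 1 rose and 5 fell with differentiation in BIGH3 treated cells (5.26% and 26.3%, with 28.9% and 27.7% over all genes). In control cells 2 rose and 2 fell (10.5% each, with 29.1% and 28.6% over all genes). With BIGH3 in differentiated cells 1 rose and 2 fell (5.26% and 10.5%, with 22.6% and 22.9% over all genes). When the 3 libraries highest in liver markers were left out 0 rose and 1 fell, with 17.2% and 19.3% over all genes. Among the 2 falls in the fit of all libraries was Top1mt, the mitochondrial topoisomerase (-0.54 ± 0.08, adjusted p = 1.55e-05). Top1mt averaged 18.5 ± 1.4 CPM in differentiated BIGH3 and 27.0 ± 0.80 CPM in differentiated control libraries, and it rose by 0.71 ± 0.08 with differentiation in control cells. Of 22 genes of mitochondrial RNA processing and stability, 5 rose and 4 fell with differentiation in BIGH3 treated cells (22.7% and 18.2%), and 7 rose and 5 fell in control cells (31.8% and 22.7%), beside the same shares of all genes as above. With BIGH3 in differentiated cells 4 of them rose and 7 fell (18.2% and 31.8%, with 22.6% and 22.9% over all genes). Leaving out the 3 libraries highest in liver markers, 2 rose and 4 fell, when 17.2% of all genes rose and 19.3% fell. Pnpt1, a mitochondrial RNA-degrading enzyme, rose (0.39 ± 0.07, adjusted p = 6.85e-05). Elac2, the nuclease that cuts the tRNA 3′ ends out of precursors, fell (-0.33 ± 0.07, adjusted p = 0.00113), as did Hsd17b10, a subunit of the mitochondrial RNase P complex (-0.39 ± 0.06, adjusted p = 9.52e-06). In undifferentiated cells 0 members of each of these lists were called with BIGH3, by edgeR.

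Of 7 tested regulators of mitochondrial biogenesis, 1 rose and 3 fell with differentiation in either treatment (14.3% and 42.9%, with 28.9% and 27.7% of all genes in BIGH3 treated cells and 29.1% and 28.6% in control cells). Leaving out the 3 libraries highest in liver markers, 1 fell in BIGH3 treated cells and 3 in control cells, when 26.3% and 24.6% of all genes fell. With BIGH3 in differentiated cells 0 rose and 2 fell (0% and 28.6%, with 22.6% and 22.9% over all genes). The fall of Gabpb1, a subunit of a transcription factor of nuclear respiratory genes, was lost when the 3 libraries highest in liver markers were left out (-0.33 ± 0.08, adjusted p = 0.00201, against an adjusted p of 0.0544). Ppargc1a, the coactivator PGC-1α, averaged 1.82 ± 0.72 CPM in differentiated BIGH3 and 4.52 ± 0.54 CPM in differentiated control libraries (log2 -1.31 ± 0.31, adjusted p = 0.00164). In undifferentiated libraries it averaged 0.412 ± 0.20 CPM with BIGH3 and 0.337 ± 0.046 CPM without. It rose with differentiation by 2.13 ± 0.36 in BIGH3 treated and 3.73 ± 0.36 in control cells, and the interaction was -1.60 ± 0.52 (adjusted p = 0.0232). That interaction was not called without the 3 libraries highest in liver markers (-1.29, adjusted p = 0.123), nor without undifferentiated BIGH3 1 (adjusted p = 0.117), undifferentiated control 2 (0.0532) or differentiated control 3 (0.0545).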

How the data were processed

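Libraries were prepared with a KAPA kit, per the labels' protocols. Salmon, cutadapt, FastQC, StringTie and the build mm10 stand, without versions, in the submitters' processing notes. The authors deposited, per transcript, estimated counts (reads, which need not be whole), TPM scaled by effective length, and lengths, per the file headers. By identifier without version, 137063 of 147828 transcripts (92.7%) were found in GENCODE M21 (GRCm38). Those not found held 1.28% to 3.67% of a library's reads and were left out. All 55 transcripts of the mitochondrial genes and their nuclear copies had the same length in both.

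Estimated counts were summed per gene, rounded, filtered with filterByExpr by group (14711 genes kept), normalised with TMM, and tested by edgeR 4.0.16 (R 4.3.3, quasi-likelihood, robust, 1 term per group, 12 libraries, 8 residual degrees of freedom). Tests were two-sided, with Benjamini-Hochberg adjustment over all genes tested and a call at an adjusted p below 0.05. Fold changes carry standard errors (derived from the F statistic) and levels standard deviations, with n = 3. Nuclear copies were found with BLAST 2.17.0 at 90% identity or more over 100 bases or more. Reads of all 17 copy genes found were added (14704 genes tested), and the 6 with over 100 reads in a library were named as such. Alternatives used DESeq2 1.42.0 and limma 3.58.1 on log2 of TPM plus a pseudocount of 1 or 0.1. The fit was run on simulated counts with the same spread for every gene and few changed genes, a simpler setting than these data. The members and lists were chosen with earlier results of these data known. At most 4 genes of each nuclear list were named per comparison, those with the smallest adjusted p. Sequences are from the GRCm38 transcripts of GENCODE M21.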

Additional observations from a re-analysis of the deposited data

Results flagged for a closer look

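The BIGH3 effect differed between the differentiated and undifferentiated states by the interaction test for 4 of the 15 tested mitochondrial genes. The 4 join the calls as deposited and those with the copies added. As deposited 32.2% of all genes were called in either direction, and with the copies added 16.5% were called lower. For mt-Nd3 the difference was -1.54 on the log2 scale, both as deposited (adjusted p = 0.00445, edgeR) and with the reads of the nuclear copies added (adjusted p = 0.00432). For mt-Cytb it was -0.77, with an adjusted p of 0.0439 as deposited and 0.0394 with the copies added. With the copies added it was -0.83 for mt-Nd4 (adjusted p = 0.0329) and -0.59 for mt-Co2 (adjusted p = 0.0460), neither of which was called as deposited. None of the 4 was called without the 3 libraries highest in liver markers. The call for mt-Nd3 stayed in each fit that left out 1 library. Those for mt-Cytb as deposited, and for mt-Nd4 and mt-Co2 with the copies added, were lost in most of these fits.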

How the results depend on the processing

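With 3 libraries a group, fold changes of mitochondrial genes between 2 groups carry log2 standard errors of up to 0.43 as deposited and 0.23 with the copies added, and interactions of up to 0.60 and 0.32, so small differences were not detectable. The counts of genes called higher with differentiation, and the 0 genes called with BIGH3 in undifferentiated cells, stayed within 1.5 times of the values in the report under each alternative that used all libraries. Leaving out each library in turn gave 0 genes for BIGH3 in undifferentiated cells, 1 to 2 (1 to 3 with copies added) for BIGH3 in differentiated cells, 9 to 14 (12 to 14) for differentiation in BIGH3 treated cells, 13 to 15 (15) in control cells and 1 to 3 (1 to 5) for the interaction. No shares over all genes are given for these fits, so their counts cannot be set beside a background.

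For BIGH3 in differentiated cells, where 1 gene was called, DESeq2 gave 2, limma on log2 TPM gave 4 with either pseudocount (1 higher, 3 lower), and the copies added gave 2, also with TMM from nuclear genes only, and 3 with DESeq2. DESeq2 called 44.0% of all genes in this comparison as deposited. No share over all genes is given for limma, nor for the added copies joined with DESeq2 or TMM from nuclear genes. Those counts cannot be set beside a background. Without the 3 or the 4 libraries highest in liver markers the count was 0, with or without the copies. As deposited 17.2% and 18.4% of all genes were called higher in those fits, and 19.3% and 18.4% lower. For the interaction, where 2 genes were called, no filter on low counts gave 1, the copies added gave 4, also with TMM from nuclear genes only, and 5 with DESeq2. Of these alternatives, only the copies added alone has a share over all genes, 16.5% lower. Without the 3 libraries highest in liver markers it gave 0 and without 4 of them 1, with or without the copies. Fewer libraries enter those fits. Settings that join the added copies with a second change were chosen after seeing the data.

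The mt-Co2 interaction (1.07 as deposited) turned to -0.59 with the copies added, -0.58 with DESeq2 in addition, -0.59 with TMM from nuclear genes, and -0.57 with the replicate block. It was -0.69, -0.68 and -0.45 with the copies added and without undifferentiated BIGH3 1, differentiated control 1 or differentiated control 3.

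Of 18 pairs of same-numbered libraries from different groups, 4 deviated together (correlation over 0.1, range -0.224 to 0.350). This does not settle whether the numbers pair the samples, and the main fit took them as unpaired. With the replicate block the interaction had 1 gene in place of 2, and no share over all genes is given for that fit.

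The mitochondrial share of reads moved with its definition. With the copies added it was 11.2% in differentiated BIGH3, 11.8% in differentiated control, 6.46% in undifferentiated BIGH3 and 5.50% in undifferentiated control libraries. As a share of TPM it was 15.9%, 16.2%, 9.63% and 8.46%. Over the 13 protein genes alone, as a share of reads outside the mitochondrial rRNA and tRNA genes, it was 7.64% in differentiated BIGH3 and 3.77% in undifferentiated control libraries. Leaving out 1 library gave 8.63% to 9.10%, 8.32% to 10.0%, 4.69% to 5.41% and 4.27% to 4.63%. The median of all genes shifted by -0.16 with library totals (differentiation in control cells) and by up to -0.31 with limma on TPM.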
